A study of Mus musculus with 7 samples.

Results

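The regions described here carry H3K27-Ac at the start of a long non-coding RNA (lncRNA) gene and lie away from every protein-coding start. They were chosen by the peak lists themselves. The peaks of 3 lists, 1 for each cell clone, were merged on chromosomes 1 to 19 where they shared at least 1 bp. A region was kept when all 3 lists had a peak in it, when it lay within 1 kb of an lncRNA start in GENCODE M21, and when no protein-coding start lay within 1 kb. This left 437 regions, at the starts of 448 lncRNA genes, of 56903 merged regions, of which 27.2% were overlapped by all 3 lists. The study asked how a 129P2 allele cooperates with loss of *Cdkn2ab* in skin cancer. Clones 1, 2 and 3 are cell lines, each grown from 1 clone of a different skin tumour, a trichoblastic carcinoma, of *Cdkn2ab* -/- mice on a backcross of 129P2 to FVB/N. All of them lack p15Ink4b, p16Ink4a and p19Arf, and there is no clone with an intact locus and no untreated or treated group. Peaks were called by the authors from 4 H3K27-Ac libraries (clones 1 and 2 had 1 each, and the 2 of clone 3 were combined) and 3 libraries with control IgG from clones 1 and 3.

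Acetylation of lysine 27 of histone H3 marks the nucleosomes beside active promoters and enhancers. An lncRNA is transcribed by RNA polymerase II and often spliced, but is not translated. Some lncRNAs have roles of their own, some carry small nucleolar RNAs (snoRNAs) or miRNAs in their introns or exons, and many are known only as transcripts that start at enhancers. Promoters rich in the dinucleotide CpG are in use in most tissues, whereas CpG-poor ones tend to be used in few cell types.

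The lists held 28641, 48925 and 28798 peaks of clones 1, 2 and 3 on the autosomes, and a typical summit, the highest point of a peak, was covered by 37, 34 and 53 ChIP reads (medians). The weakest peaks rested on 13, 12 and 25 reads, so that a weaker site is in no list. Each peak has a fold enrichment, the ratio of ChIP reads to the local background at the summit. Because the lists differ in depth and in number of peaks, fold enrichment was read within a list, as a percentile among all autosomal peaks of that clone or as a rank among the 15462 shared regions (both run from 0 to 100, the highest). With 1 condition and 3 clones no group can be tested against another, and since peak calls chose the regions, heights are given as descriptions. Regions are not replicates. Where a difference between kinds of regions is given, its error is the SD over the 3 clones. Of the keratinocyte markers looked up, 3 of 12 (*Cdh3*, *Itga6* and *Perp*) had a shared region within 1 kb of a start, and *Krt5*, *Trp63*, *Cdh1* and *Epcam* had no peak there in any clone. Of the fibroblast and mesenchymal markers 6 of 10 had one (*Vim*, *Twist1*, *Zeb1*, *Zeb2*, *Pdgfrb* and *Col1a2*). At *Col1a2* clone 3 had no peak within 1 kb of a start. *Col1a1*, *Col3a1*, *Pdgfra* and *Thy1* had no shared region, and *Thy1* had no peak there in any clone. A shared region was found at 2 of 4 melanocyte, 1 of 6 immune and 0 of 4 endothelial markers. Over all protein-coding genes the share was 48.1%, so the mesenchymal and melanocyte counts lie near that of any coding gene. The control background at the summit, which each fold enrichment divides by, was not independent between lists. Over 6236 shared regions whose summits lay within 100 bp of each other, its Spearman's rho was 0.88 between clones 1 and 2, and 0.11 and 0.12 between clone 3 and clones 1 and 2. The lists do not separate the alleles.

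A set of 8 sequences shows the range of starts. They are the highest region (*6720427I07Rik*), an abundant nuclear lncRNA (*Malat1*), a pair of snoRNA hosts (*Snhg8* and *Dancr*), the starts beside *Myc*, *Wnt7b* and *Cdkn1a* (*Pvt1*, *Gm49539* and *Trp53cor1*) and a CpG-poor start whose height differed between clones (*Gm17173*). Each runs 5′ to 3′ on the strand of the gene from 250 bases before the start to 50 after it, read from the GRCm38.p6 assembly. Capitals mark letters of the searched motifs on either strand. The TATA box was searched as TATAAA and the GC box as GGGCGG, and the CCAAT box by the letters of its name. The site of AP-1 was searched as TGACTCA, the cyclic AMP response element (CRE) as TGACGTCA and the E-box as CACGTG. For the TEAD factors the letters were CATTCC, and for the Wnt-responsive factors TCF and LEF they were CTTTGAT.
6720427I07Rik: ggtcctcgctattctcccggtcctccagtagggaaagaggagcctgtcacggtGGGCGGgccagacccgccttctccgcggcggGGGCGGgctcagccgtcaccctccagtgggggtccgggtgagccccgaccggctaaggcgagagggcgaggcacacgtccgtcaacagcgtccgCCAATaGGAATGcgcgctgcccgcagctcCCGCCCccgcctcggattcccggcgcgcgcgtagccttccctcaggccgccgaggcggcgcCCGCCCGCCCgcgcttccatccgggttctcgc
Malat1: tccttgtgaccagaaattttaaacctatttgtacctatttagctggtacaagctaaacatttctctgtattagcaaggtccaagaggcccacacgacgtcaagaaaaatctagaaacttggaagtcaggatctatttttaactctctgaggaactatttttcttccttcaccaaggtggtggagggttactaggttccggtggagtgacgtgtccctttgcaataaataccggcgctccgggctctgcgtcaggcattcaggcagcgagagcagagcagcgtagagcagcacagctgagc
Snhg8: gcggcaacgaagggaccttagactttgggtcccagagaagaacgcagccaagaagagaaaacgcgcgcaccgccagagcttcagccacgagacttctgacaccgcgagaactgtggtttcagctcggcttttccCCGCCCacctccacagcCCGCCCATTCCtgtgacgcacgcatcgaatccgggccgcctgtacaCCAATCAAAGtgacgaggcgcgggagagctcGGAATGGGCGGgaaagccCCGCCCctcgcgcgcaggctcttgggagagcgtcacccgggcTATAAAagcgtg
Dancr: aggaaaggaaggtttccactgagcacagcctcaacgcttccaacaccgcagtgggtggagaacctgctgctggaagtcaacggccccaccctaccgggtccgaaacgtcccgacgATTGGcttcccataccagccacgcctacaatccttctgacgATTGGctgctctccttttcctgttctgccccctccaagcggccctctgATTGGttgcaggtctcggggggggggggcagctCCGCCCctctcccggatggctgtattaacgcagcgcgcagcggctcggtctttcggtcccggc
Pvt1: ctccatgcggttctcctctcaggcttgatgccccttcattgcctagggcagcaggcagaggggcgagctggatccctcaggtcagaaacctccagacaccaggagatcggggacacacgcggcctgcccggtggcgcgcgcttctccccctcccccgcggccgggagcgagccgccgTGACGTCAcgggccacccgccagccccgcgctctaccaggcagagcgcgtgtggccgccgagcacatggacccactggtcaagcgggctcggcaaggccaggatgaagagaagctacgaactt
Gm49539: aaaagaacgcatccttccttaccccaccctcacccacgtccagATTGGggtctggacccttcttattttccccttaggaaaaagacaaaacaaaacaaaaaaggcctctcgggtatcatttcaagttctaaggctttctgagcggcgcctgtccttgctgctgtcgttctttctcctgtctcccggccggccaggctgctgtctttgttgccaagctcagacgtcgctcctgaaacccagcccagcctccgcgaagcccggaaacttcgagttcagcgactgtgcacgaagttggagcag
Trp53cor1: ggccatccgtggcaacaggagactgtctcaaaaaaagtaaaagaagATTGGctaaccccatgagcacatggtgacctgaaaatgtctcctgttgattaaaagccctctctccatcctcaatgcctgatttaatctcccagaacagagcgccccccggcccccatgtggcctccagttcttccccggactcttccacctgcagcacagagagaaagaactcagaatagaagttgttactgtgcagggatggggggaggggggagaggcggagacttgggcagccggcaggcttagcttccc
Gm17173: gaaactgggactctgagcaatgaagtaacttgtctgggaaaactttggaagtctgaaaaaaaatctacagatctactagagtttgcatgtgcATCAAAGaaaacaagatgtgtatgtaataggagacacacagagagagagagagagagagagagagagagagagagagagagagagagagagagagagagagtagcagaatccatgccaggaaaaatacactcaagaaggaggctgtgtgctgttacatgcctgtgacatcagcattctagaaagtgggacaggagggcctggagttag

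The windows lie at chr13:48546451-48546750 (minus strand) for *6720427I07Rik*, chr19:5802623-5802922 (minus strand) for *Malat1*, chr3:123508355-123508654 (minus strand) for *Snhg8*, chr5:74092833-74093132 (plus strand) for *Dancr*, chr15:62037811-62038110 (plus strand) for *Pvt1*, chr15:85645833-85646132 (plus strand) for *Gm49539*, chr17:29079130-29079429 (minus strand) for *Trp53cor1* and chr14:45006851-45007150 (minus strand) for *Gm17173*. They hold very different numbers of CpG. There were 40 in the window of *6720427I07Rik*, 30 in *Snhg8*, 27 in *Pvt1*, 21 in *Dancr*, 16 in *Gm49539*, 10 in *Malat1*, 6 in *Trp53cor1* and 0 in *Gm17173*. The *6720427I07Rik* window has 5 matches to the GC box, a pair of which overlap, and that of *Dancr* has 3 to the CCAAT box. The CRE letters stand from 73 to 66 bases before the *Pvt1* start. In *Snhg8* the CCAAT box and the TCF and LEF letters overlap. The *Malat1* window holds none of the searched letters. A match is a description of the sequence and says nothing of binding.

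Of the lncRNA genes with a start more than 1 kb from any coding start, 7697 in all, 447 (5.81%) had a start at 1 of the regions. For protein-coding genes the share with a start within 1 kb of a shared region was 48.1%, or 10002 of 20807. That share also counts the 1224 shared regions at both coding and lncRNA starts, which the lncRNA share leaves out. Among lncRNA genes the share depended on the annotated type. It was 13.2% for processed transcripts (68 of 515 genes), 5.84% for lincRNAs, which lie between genes (284 of 4867), 4.92% for sense intronic genes (15 of 305) and 4.07% for antisense genes (80 of 1967). No bidirectional (0 of 17) or sense overlapping gene (0 of 26) was among them. Most regions, 406, belonged to 1 lncRNA gene and 31 to a pair of genes. There were 19 genes with more than 1 region, led by *3110039I08Rik* with 3.

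By position, the leading start, the lncRNA start nearest on average to the summits, lay between coding genes in 343 of 437 regions, in an intron in 88 and in an exon in 6. A coding start was a median of 26.4 kb away, within 5 kb of 69 regions and beyond 100 kb of 71. Relative to the nearest coding start, 128 lncRNAs began upstream on the opposite strand (divergent), 112 upstream on the same strand, 101 downstream on the opposite strand and 96 downstream on the same strand. Small RNA genes began within 1 kb in few cases, with a snoRNA at 15 regions and a miRNA at 8. In 201 regions (46.0%) another shared region lay within 12.5 kb. A lncRNA start lay inside 345 regions, and in 211 (48.3%) a start base itself was under a peak of every list.

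The limit of 1 kb was set by rule. Just inside the lncRNA limit lay the region of *Gm45509*, 998 bp from the start (23.4-, 31.5- and 11.8-fold in clones 1, 2 and 3), and just outside it that of *AC132288.1*, at 1007 bp (11.7-, 14.0- and 10.5-fold). The region of *7530414M10Rik* came nearest to a coding start, at 1012 bp from *Cyb5r3*, with 5.11-, 9.55- and 5.36-fold enrichment. On the other side of that limit a region at the start of *Gm14377* lay 910 bp from *Ptpn5* and reached 6.43-, 12.4- and 13.8-fold. RefSeq, a second annotation, placed the start of a curated protein-coding transcript within 1 kb of 17 of the 437 regions, among them those of *Zswim6*, *Ptpmt1*, *Spata5l1* and *Tctn2*, whose genes have a non-coding type in GENCODE M21.

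In each clone H3K27-Ac was lower in the lncRNA-only regions than at coding starts and higher than in shared regions away from all starts. The highest peak of a region stood for it. In 74, 73 and 83 of the 437 regions its summit lay over 1 kb from every lncRNA start in clones 1, 2 and 3. The median percentile of fold enrichment of the 437 regions was 64.4, 78.5 and 65.6 in clones 1, 2 and 3. It was 80.5, 89.4 and 75.7 in 8248 shared regions at coding starts only, and 52.5, 68.3 and 55.1 in 5553 shared regions away from starts. The regions at lncRNA starts thus stood 12.3 ± 3.2 percentile points below those at coding starts (SD, n = 3 clones) and 10.9 ± 0.9 points above those away from starts. In fold enrichment the medians were 10.9, 20.3 and 6.71 at lncRNA starts, against 18.5, 42.4 and 8.04 at coding starts. In ChIP reads at the summit they were 53, 106 and 66 against 96, 228 and 80. The median widths differed little, with 1742 bp at lncRNA and 1655 bp at coding starts.

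The lncRNA-only starts were divided by their sequence, which the choice of regions had not used. CpG content was taken as the ratio of observed to expected CpG in 500 bp around the leading start, and a start above 0.6 was called CpG-rich. There were 133 CpG-rich starts (30.4%) and 304 CpG-poor ones, whereas 83.8% of the regions at coding starts only were CpG-rich. Around the centres of the regions 131 of the 437 lncRNA-only regions (30%) were CpG-rich, against 76.6% at coding starts and 5.64% away from starts. By type, the start was CpG-rich in 45.1% of processed transcripts, 31.3% of lincRNAs and 19.5% of antisense lncRNAs.

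Height followed this split. In clones 1, 2 and 3 the median percentile was 79.7, 88.0 and 75.1 for CpG-rich lncRNA starts and 60.3, 75.1 and 61.6 for CpG-poor ones, a difference of 15.3 ± 3.5 points (SD, n = 3 clones). Set beside coding starts of the same kind, the gap in percentile was narrower than over all starts. CpG-rich lncRNA starts stood 3.0 points below CpG-rich coding starts on average over the clones, with differences of -3.1, -2.7 and -3.4. The median rank of these lncRNA starts among shared regions was 63.4, 62.5 and 58.2, against 68.7, 70.7 and 63.2 at the coding starts. Median reads at the summit were 85, 202 and 79 against 104, 248 and 85, lower in every clone. For CpG-poor starts the difference was -5.0, -4.8 and 2.6 points, which does not have 1 direction in the 3 clones. CpG-poor lncRNA starts were still 7.0 ± 0.7 points above shared regions away from starts. In the box plot of percentiles the CpG-rich lncRNA starts lie a little below the CpG-rich coding ones, and the boxes of neighbouring kinds overlap widely.

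**Figure D1:**
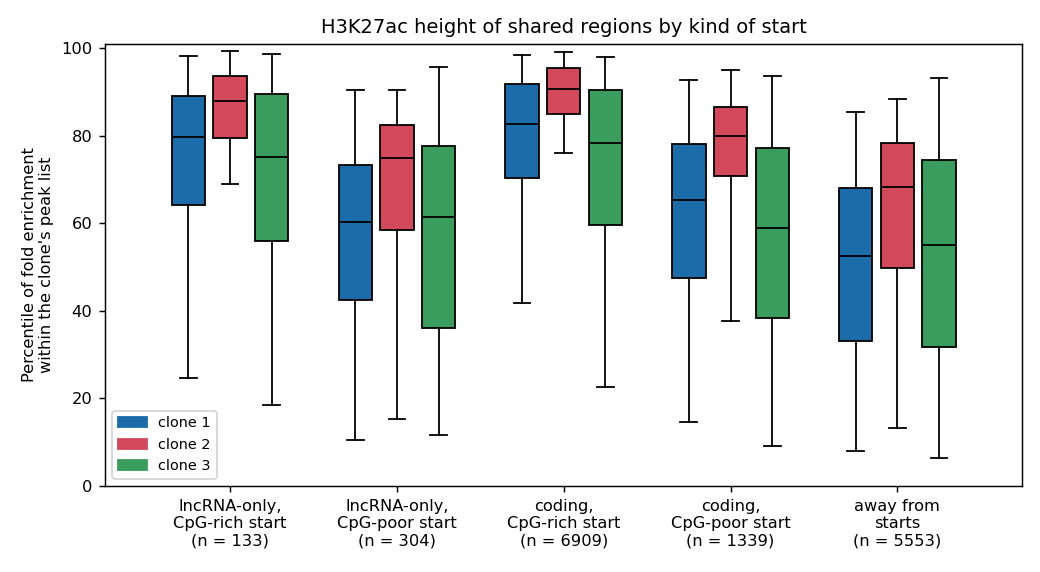
Percentile of H3K27-Ac fold enrichment within each clone's peak list (y axis) for shared regions of 5 kinds (x axis); boxes span the quartiles, lines are medians and whiskers reach the 5th and 95th percentile of regions. In every clone the 133 CpG-rich lncRNA-only starts lie above the 304 CpG-poor ones (medians of 79.7 and 60.3 in clone 1).

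The summits also lay differently around the start. At CpG-rich lncRNA starts the median summit was 125, 123 and 173 bp downstream of the start in clones 1, 2 and 3, and 54.1%, 54.9% and 51.9% of summits lay 50 to 400 bp downstream. At CpG-poor starts 27.6%, 23.0% and 27.3% lay there. Among coding starts, with the leading start taken in the same way, the shares were 69.6%, 69.7% and 65.3% at CpG-rich and 43.7%, 40.3% and 40.3% at CpG-poor starts, both above those of the lncRNA starts. Within 500 bp on either side lay 85.7%, 86.5% and 84.2% of the summits at CpG-rich starts and 52.0%, 54.9% and 52.3% at CpG-poor ones. Closeness to the start is in part fixed by the choice, since a start within 1 kb was required and the leading start is the one nearest to the summits. How well GENCODE places the starts was not tested. *Mir17hg*, the host of an oncogenic cluster of miRNAs, is an example of a distant summit, 1146, 1087 and 1736 bp before its annotated start.

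**Figure D2:**
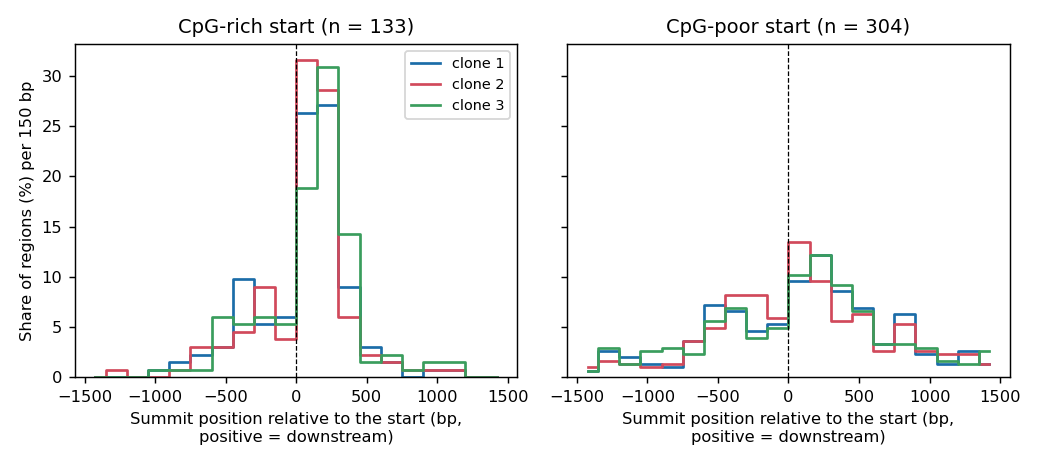
Share of regions (y axis, % per 150 bp) by the position of the summit relative to the leading lncRNA start (x axis, bp), for CpG-rich (left) and CpG-poor starts (right) in each clone; the dashed line is the start. At CpG-rich starts the lines of all clones peak just downstream (medians of 125, 123 and 173 bp), and at CpG-poor starts they are broad.

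The letters of the motifs also differed in frequency between the kinds of starts. Of the CpG-rich lncRNA starts 63.2% held the GC box in the 300 bases around the start, against 13.5% of the CpG-poor ones, 43.7% of all coding genes and 9.67% of all lncRNA genes away from coding starts. The AP-1 letters, bound by Jun and Fos proteins, were in 17.1% of the CpG-poor starts (52 of 304) and 5.26% of the CpG-rich ones (7 of 133), with 6.78% of all lncRNA and 4.52% of all coding genes. In the middle 300 bases of the regions AP-1 letters were in 16.8% of the CpG-poor lncRNA regions and 17.7% of the regions away from starts, against 3.38% of those at coding starts. The TEAD letters were in 24.3% of the CpG-poor starts, against 17.4% of all lncRNA genes. The CCAAT box was about as frequent in all 4 sets, at 33.1%, 35.9%, 36.4% and 38.6%, and the TATA box stood in 20 of 133 CpG-rich and 36 of 304 CpG-poor starts. The TCF and LEF letters, read by the Wnt pathway's factors, were in 3.43% of all 437 starts, below the 5.20% of all lncRNA genes and beside the 3.47% of coding genes. CRE letters were in 6.77% of CpG-rich and 0.987% of CpG-poor starts, and the E-box in 11.3% and 5.92%. The letters of the GC box, CRE and E-box each hold a CpG. The division by CpG ratio, made over much the same bases, thus favours them in CpG-rich starts. The starts were also chosen differently. For all lncRNA and all coding genes the most upstream start of each gene was read, and for the regions the leading start. Base composition differs between the sets, and its part in these shares was not tested.

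**Figure D3:**
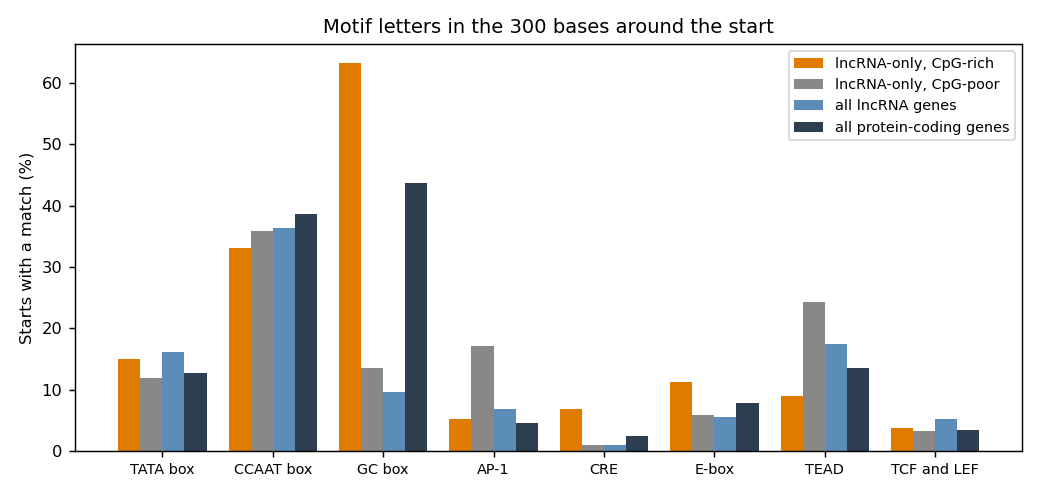
Share of starts (y axis, %) with at least 1 match to each motif on either strand in the 300 bases around the start, for CpG-rich and CpG-poor lncRNA-only starts and for all lncRNA genes over 1 kb from coding starts and all protein-coding genes. The gene sets use the most upstream start of each gene, and the lncRNA-only sets the leading start. The GC box, whose letters hold a CpG, is most frequent in CpG-rich lncRNA starts (63.2%) and AP-1 in CpG-poor ones (17.1%).

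The highest region of all lay at *6720427I07Rik* (ENSMUSG00000097375.3), a lincRNA on chr13:48545085-48547257 that is 31.5 kb from the nearest coding start. It had 76.9-fold enrichment in clone 1, 111-fold in clone 2 and 24.6-fold in clone 3, with 302, 451 and 242 ChIP reads at the summit. Its rank among shared regions was 100.0, 100.0 and 99.8, so every clone placed it at or near the top. The summits stood 227, 270 and 245 bp downstream of the start. Next came chr19:5835279-5853130, where *Frmd8os* and *Neat1*, the scaffold RNA of nuclear paraspeckles, start 145 bp apart on opposite strands. The highest peak of the region reached 47.7-, 87.7- and 22.0-fold. The region is 17852 bp wide and these are different peaks, with summits at 2315, -1316 and 691 bp from the leading start of *Frmd8os* (positive downstream), so the values are not the height of 1 shared site. *1810026B05Rik* (chr7:73554717-73560294, 12.9 kb from *Chd2*) came after it with 53.3-, 88.2- and 17.1-fold. *Malat1* (ENSMUSG00000092341.3), an abundant RNA of nuclear speckles, followed with 48.0-, 108- and 14.8-fold over chr19:5796185-5808138. It had 190, 437 and 135 reads, with exact Poisson 95% intervals of 164 to 219, 397 to 480 and 113 to 160, which cover counting error only. In clone 3 the summit lay 1126 bp downstream of the nearest *Malat1* start, and the highest peak with its summit within 1 kb of a start had 6.49-fold there. In 108 of the 437 regions the highest summit was over 1 kb from every lncRNA start in at least 1 clone, and in 50 of them in all clones.

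The rest of the 10 highest were *B930059L03Rik*, *Gm6410*, *Gm2885*, *E130102H24Rik*, *Gm26887* and *Mir17hg*, with mean percentiles of 97.5, 97.5, 97.3, 97.2, 97.1 and 96.8. They are lincRNAs without a well-described role, apart from *Mir17hg*. In clone 2 the *Gm26887* summit lay 3736 bp from the nearest lncRNA start. In 21 regions the peak was above the 90th percentile of all 3 lists, and 17 of these had a CpG-rich start. The 5 lowest were *3110039I08Rik*, *Gm39043*, *Gm27240*, *Gm47469* and *Gm12681*, with mean percentiles of 12.7, 19.6, 20.8, 21.8 and 21.8. The *3110039I08Rik* region had 4.00-, 4.33- and 4.14-fold enrichment from 26, 28 and 37 reads, where the weakest peaks of the lists had 13, 12 and 25. Its percentiles were 5.23, 10.8 and 22.8 in clones 1, 2 and 3. In 19 regions the peak was below the median of all 3 lists. Of the regions with a descriptive symbol, the antisense RNAs *Fbxl12os* and *Rab10os* had 41.2-, 80.7- and 12.2-fold enrichment and 31.4-, 75.6- and 11.1-fold, both with CpG-rich starts. *Bach2os*, whose start has a CpG ratio of 0.10, had 27.5-, 18.1- and 10.1-fold enrichment from 108, 90 and 128 reads. Its summits lay 2049, 898 and 347 bp from the nearest start, so the clone 1 value is not that of a peak at the start. *Tmem250-ps*, *Rncr4*, *Trmt61b*, *Snhg7os*, *Bach2it1* and *Dlx1as* had mean percentiles of 94.9, 92.7, 90.1, 82.7, 79.2 and 77.5. The *Dlx1as* summits lay 1615, 3491 and 3478 bp from the nearest lncRNA start in clones 1, 2 and 3. That of *Bach2it1* lay 1141 bp away in clone 1. These values are thus not heights at the start.

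Known lncRNAs were looked up from a list of 75 names, of which 58 are autosomal lncRNA genes in this annotation. At 25 of them a lncRNA-only region was found, at 10 the shared region was also within 1 kb of a coding start, and 23 had no shared region. The list favours well-studied genes, so its share is not set against the 5.81% of all lncRNA genes.

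The snoRNA hosts, whose spliced-out introns yield guide RNAs for ribosomal RNA modification, all had a shared region where they were found, as did the 4 widely expressed genes found. *Snhg14*, a snoRNA host that had no shared region, was listed among the imprinted genes. *Snhg11*, a host with a protein-coding type in this annotation, is not counted among those found. Of the 13 hosts, 9 were lncRNA-only (*Dancr*, *Snhg5*, *Snhg6*, *Snhg8*, *Snhg12*, *Snhg15*, *Snhg17*, *Snhg20* and *Epb41l4aos*), and 4 lay near a coding start (*Gas5*, *Snhg1*, *Snhg3* and *Snhg18*). *Dancr*, also known for holding back differentiation of epidermal progenitors, had 35.7-, 62.6- and 13.9-fold enrichment in clones 1, 2 and 3, with 166, 290 and 118 reads. Its summits lay 276, 261 and 309 bp downstream, and its ranks of 91.3, 85.9 and 90.5 were close together. *Snhg8* had 29.4-, 68.5- and 9.42-fold, and *Snhg20* had 8.24-, 24.5- and 4.67-fold, the lowest of the group. *Snhg15* had 32.2-, 34.6- and 14.5-fold, which placed it at ranks 88.2, 56.9 and 92.1, lowest in clone 2. Of the 9 lncRNA-only hosts, 8 had a CpG-rich start and *Snhg15*, at a ratio of 0.53, did not.

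Of 9 miRNA hosts found, 4 were lncRNA-only. *Mir17hg* had 43.3-, 59.6- and 16.8-fold enrichment. *Dleu2*, a host of tumour-suppressing miRNAs, had a pair of regions, the upper with 38.3-, 71.4- and 13.3-fold and the other with 18.1-, 29.7- and 12.2-fold. *Mir155hg*, the precursor of miR-155, had 7.05-, 36.5- and 5.80-fold and stood at rank 59.4 in clone 2 against 19.6 and 34.5 in clones 1 and 3. *Mir99ahg* also had a pair of regions, the higher with 6.55-, 14.0- and 8.86-fold. *Mir22hg* had its region near a coding start. *Mir142hg* and *Dnm3os* had a peak in clones 2 and 3 only, and *Mir124a-1hg* and *Mir9-3hg*, which belong to neural miRNAs, in none.

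Imprinted lncRNAs are expressed from 1 parental allele, and these lists sum both. *Airn*, which silences *Igf2r*, had 14.4-, 23.8- and 6.35-fold enrichment. *Kcnq1ot1*, which silences *Cdkn1c* among others, had 13.9-, 19.6- and 5.63-fold. *Nespas*, antisense at *Gnas*, had 11.2-, 21.7- and 5.50-fold, and *Peg13*, within *Trappc9*, had 8.04-, 21.6- and 5.74-fold. All 4 were thus of middle height among the 437 regions. Their mean percentiles were 72.1, 68.0, 65.5 and 62.2, where the median of the 437 was 66.4. *H19*, *Meg3*, *Rian*, *Mirg* and *Snhg14* had no peak near a start in any clone.

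Among the other listed genes *Pvt1*, which lies 50.1 kb from *Myc*, had 28.3-, 37.6- and 16.7-fold enrichment, and *Tug1* had its region near a coding start. *Trp53cor1* (lincRNA-p21), a target of p53 that lies 11.2 kb from *Cdkn1a*, had 16.7-, 12.7- and 14.7-fold, from 116, 87 and 140 reads. Its rank was 60.1, 23.6 and 92.5, so that clone 3 placed it high and clone 2 low. The p53 pathway also holds *Lncpint*, whose higher region had 26.9-, 54.0- and 7.43-fold. *Dlx6os1*, a developmental antisense RNA, had 9.98-, 3.47- and 7.12-fold, the clone 2 value resting on 22 reads (95% interval of 13.8 to 33.3). *Bvht* and *Mirt1*, first described in heart cells, had 24.0-, 46.7- and 6.49-fold and 5.80-, 27.3- and 7.84-fold. The Hox lncRNAs *Hotair*, *Hottip*, *Hoxa11os* and *Evx1os* had no peak in any clone, while *Hotairm1* and *Hoxaas3* had theirs near coding starts.

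**Figure D4:**
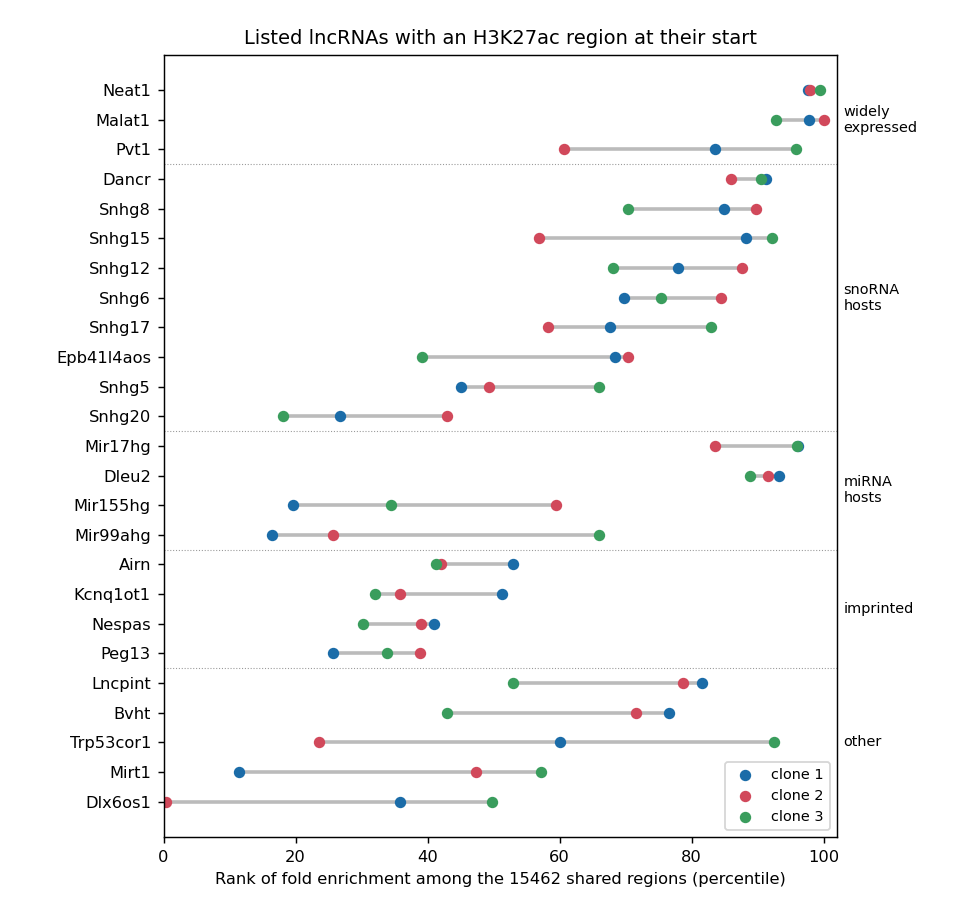
Rank of fold enrichment among the 15462 shared regions (x axis, percentile) of the 25 listed lncRNAs with a lncRNA-only region (y axis, the higher region where there are several), by group; points are clones and grey bars their range. *Neat1*, *Malat1*, *Dancr* and *Dleu2* are high in all clones by the highest peak of the region. For *Neat1* this is a different peak in each clone. For *Malat1* in clone 3 its summit is 1126 bp from the nearest start, and the highest peak within 1 kb had 6.49-fold enrichment. The imprinted genes lie near the middle or below it, and *Trp53cor1* runs from 23.6 in clone 2 to 92.5 in clone 3.

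Coding genes of skin and of the Wnt pathway were looked up as neighbours. Of 40 such genes, 7 were the nearest coding gene to at least 1 region, and 10 regions in all had 1 of them as neighbour. Of all coding genes 388 of 20807 (1.86%) were the nearest to a region, against 17.5% of the listed ones. The list was drawn up with earlier results of these data known, so the shares are not set against each other as a result. Beside *Wnt7b*, a Wnt ligand, lay *Gm49539* at 62.5 kb and *Lncppara* at 70.0 kb, both on chromosome 15 and both beginning on the strand opposite to *Wnt7b*. *Gm49539* (ENSMUSG00000116004.1, chr15:85644941-85647225) had 18.8-, 44.6- and 7.13-fold enrichment and a CpG-rich start at a ratio of 0.69. *Lncppara* (chr15:85652493-85656635) had 32.4-, 67.0- and 6.99-fold and was CpG-poor at 0.43. It was thus higher than *Gm49539* in clones 1 and 2 and at about the same fold in clone 3. Near *Myc* were *Pvt1* and *Gm41333*, the latter 580 kb away with 31.8-, 30.3- and 14.9-fold. The summits of *Gm41333* lay 1264, 1402 and 1282 bp from the nearest lncRNA start in clones 1, 2 and 3. *Gm26660* and *Gm47921* were nearest to *Zmiz1*, *Gm26626* to *Runx1*, *Runx2os2* to *Runx2*, *Junos* to *Jun* and *Gm42435* to *Cdk6*, a partner of the D-type cyclins. The highest of these was *Gm26660*, with a mean percentile of 92.2, and the lowest *Junos*, with 41.5. For 3 of them the highest summits lay over 1 kb from the nearest lncRNA start in clones 1, 2 and 3. The distances were 3419, 3429 and 3364 bp for *Gm47921* and 3822, 4111 and 3657 bp for *Gm26626*. For *Gm42435* they were 2314, 1539 and 2177 bp. Nearness does not say that the lncRNA start acts on the gene. Outside the list, *Lockd* lay 5.98 kb from *Cdkn1b*, which encodes a cell cycle inhibitor, with 27.1-, 44.3- and 8.22-fold. *Wincr1*, an RNA induced by Wnt signalling that was chosen after its values were seen, had its region at chr4:89049386-89052629 with 8.22-, 7.77- and 6.81-fold. Its highest summits lay 1817, 1823 and 1128 bp from the nearest lncRNA start.

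The clones ordered the regions partly alike. Across the 437 regions Spearman's rho of fold enrichment was 0.66 between clones 1 and 2, 0.56 between clones 1 and 3 and 0.37 between clones 2 and 3, where the control background that fold enrichment divides by was alike in clones 1 and 2 only. In ChIP reads at the summit, which are not divided by it, rho was 0.68, 0.64 and 0.46 for the same pairs. In fold enrichment it was 0.80, 0.66 and 0.47 across the CpG-rich lncRNA starts and 0.51, 0.46 and 0.25 across the CpG-poor ones. Across coding starts it was 0.82, 0.66 and 0.60, and across the CpG-poor ones among them 0.61, 0.50 and 0.32. Regions away from starts had 0.40, 0.43 and 0.18, the lowest of these sets. The rank of a region among shared regions ranged over a median of 22.6 points between clones at CpG-rich lncRNA starts and 29.1 points at CpG-poor ones. Regions at coding starts had 21.5 points, those at CpG-poor coding starts 26.3 and those away from starts 27.4. A range over 50 points was seen in 63 lncRNA-only regions (14.4%), 15 of them CpG-rich, against 7.76% of the regions at coding starts and 16.4% of those away from starts. In 35 of the 63 the lowest rank was that of clone 2, and in 42 the highest was that of clone 3. Among the 912 such regions away from starts clone 2 was lowest in 643 and clone 3 highest in 731, so both leanings were also seen away from lncRNA starts.

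Members at the ends of this range were chosen after their values were seen. *4933426B08Rik*, 25.0 kb from *Ezr*, had the widest, with 7.39-, 4.47- and 15.7-fold enrichment from 50, 29 and 126 reads and ranks of 21.8, 2.09 and 94.4. *Gm17173*, 15.9 kb from the prostaglandin receptor gene *Ptger2*, had 27.4-, 7.99- and 18.2-fold from 116, 35 and 154 reads. Its clone 2 interval of 24.4 to 48.7 reads lies below the 95.9 to 139 of clone 1 although summits at coding starts had more reads in clone 2 (median of 228) than in clone 1 (96). *Gm13470*, whose nearest coding gene is *Zeb2*, had 23.7-, 7.14- and 16.1-fold. All of these starts were CpG-poor. At the other end *Spata5l1* had ranks of 78.7, 78.2 and 79.0, and *Gm33929*, a weak and CpG-poor region, had 17.9, 17.7 and 17.6.

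**Figure D5:**
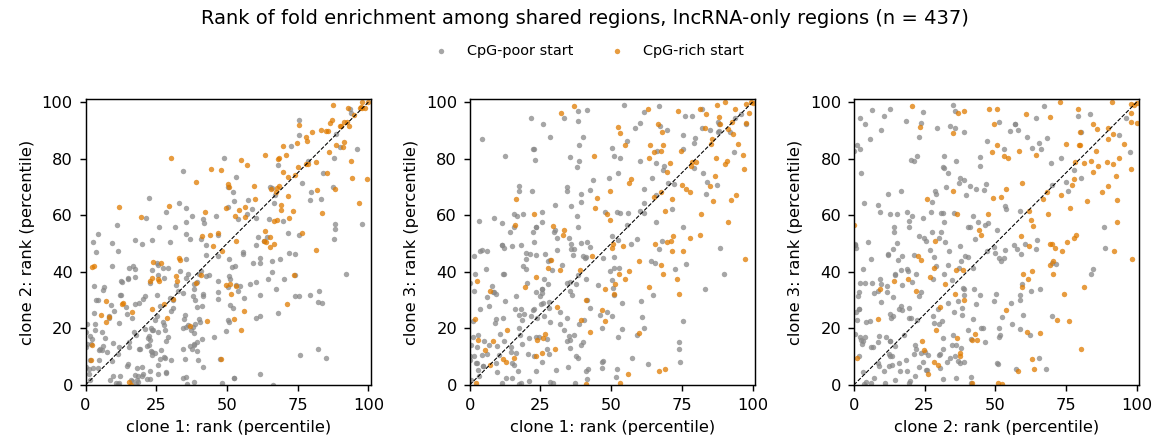
Rank of fold enrichment among shared regions (percentile, both axes) of the 437 lncRNA-only regions for each pair of clones; orange points are CpG-rich and grey points CpG-poor starts, and the dashed line marks equal ranks. The rank correlation is 0.66 for clones 1 and 2, whose control backgrounds are alike (0.88), 0.56 for clones 1 and 3 and 0.37 for clones 2 and 3.

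Chromosomes 8 and 15 held 55 of the regions. The median background at shared summits there, relative to the other autosomes, was 1.35, 1.64 and 1.43 times on chromosome 8 and 1.35, 1.45 and 1.38 times on chromosome 15 in clones 1, 2 and 3. The median percentile of the 55 regions was 52.0, 77.5 and 63.0 in clones 1, 2 and 3, against 65.7, 78.8 and 65.7 on the other autosomes. Their median ChIP reads at the summit were 53, 143 and 85 against 53.5, 100 and 64, so reads were higher in clones 2 and 3. Of their starts 16.4% were CpG-rich against 32.5%. The study's text describes gains of both chromosomes among the tumours, and of the FVB/N chromosome 15 in the analysed cell lines. The regions beside *Wnt7b* and *Myc* lie on chromosome 15, and their fold enrichment is taken over this background. The part of copy number or background in these values was not tested.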

How the data were processed

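H3K27-Ac ChIP-seq peak lists of 3 cell clones were used. Per the labels and the study's methods, the authors fixed and sonicated the cells, mapped single-end reads with Bowtie2 to GRCm38 and called peaks per clone with MACS2 2.1.1, with the 2 libraries of clone 3 pooled. As deposited, fold enrichment is the ratio of summit reads to local background, and significance is a −log10 p-value and a −log10 q-value. Peak names show a filter for allelic mapping bias in clones 1 and 2 only.

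Peaks were merged, classed by GENCODE M21 starts and described in Python 3.11.15 with pandas 2.3.3, numpy 2.4.6, pysam 0.24.0, scipy 1.17.1 and matplotlib 3.10.9. In each region the peak with the highest fold enrichment stood for the clone. Whole ChIP reads per summit were recovered by combining fold enrichment with its p, and the recovery was tested on simulated data. Sequence came from RefSeq's GRCm38.p6. Known lncRNAs, neighbours, markers and motifs came from fixed lists. The genes named were the 30 highest members with a descriptive symbol, the 10 highest and 5 lowest, *Gm49539*, members at the limits, the listed genes and, chosen after their values were seen, those singled out in the text by neighbour or clone. The members and lists were chosen with earlier results of these data known. No test was made. Alternatives were other peak thresholds, distances, overlaps, annotations and CpG settings, and leaving out each clone. Intervals cover counting error only.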

Additional observations from a re-analysis of the deposited data

How the results depend on the processing

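Over 67 alternative values of 5 results, 53 stayed within the spread between clones, the sampling interval or, for counts, 1.5 times. Requiring the peaks of each clone to cover 50% of the merged region moved all 5 results, to 241 regions, 252 genes, a mean percentile of 73.3 (65.1 as reported), 60.2% of regions with a peak of every list over a start base (48.3% as reported) and 39.8% with a CpG-rich centre (30% as reported); the cause was not tested. The share with a start base under a peak of every list was 55.0% at a −log10 q of at least 5, 41.3% with starts up to 2 kb away and 56.7% with summits within 1 kb. The share with a CpG-rich centre was 34.8% at that −log10 q and 35.3% with summits within 1 kb, and by construction 36.2% and 18.5% with a CpG ratio over 0.5 and 0.75.

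Leaving out each clone gave 501 to 564 regions of the other 2 lists, at 482 to 551 genes. The mean percentile was 58.0 to 63.1, lowest without clone 2. The start base was under all peaks in 47.7% to 52.3%, and 25.1% to 28.4% had a CpG-rich centre, fewest without clone 2. Leaving out the 17 regions at RefSeq coding starts, chosen after seeing the data, gave 420 regions and a mean percentile of 64.8. The lists hold no peak under 13, 12 and 25 reads in clones 1, 2 and 3, so a start without a peak may carry less H3K27-Ac than these depths can show. No paired analysis was possible because there is 1 condition.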

Other observations

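Starts of lncRNAs away from coding starts were also marked in fewer clones. Of 1303 merged regions at such starts, 437 were in all 3 lists, 234 in 2 lists and 632 in 1. Of all 56903 merged regions 15462 (27.2%) were in all 3 lists. Of those in 1 list, clone 2, which has the longest list, held 483, clone 1 held 58 and clone 3 held 91. Those in 2 lists lacked a peak of clone 1 in 65 cases, of clone 2 in 46 and of clone 3 in 123. The same split by clone was not made for all merged regions, so these counts cannot be called particular to lncRNA starts. *Fendrr* and *Carmn*, developmental lncRNAs of mesenchymal and smooth muscle cells, had a peak near a start in clones 1 and 2 and none in clone 3, whereas *Hoxb5os* had one in clones 2 and 3.

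Regions whose lncRNA has a descriptive symbol were higher than those named by a clone or number. Their median percentile was 77.7, 86.2 and 74.3 in clones 1, 2 and 3 (n = 59), against 63.4, 77.9 and 64.1 (n = 378), and 54.2% against 26.7% had a CpG-rich start.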
